A study of Mus musculus with 24 samples.

Results

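Differential OL enrichment on day post-injury (dpi) 2 is the change in the oligodendrocyte (OL) share of each mRNA, that is, the log2 ratio of OL to total spinal cord RNA on dpi 2 minus the same ratio in naive tissue. It was taken for every gene from the 12 naive and dpi 2 libraries of the 24 in the series, and 16613 of 21965 listed genes had enough counts to be tested. OL-Ribotag mice carry a tamoxifen-inducible Cre under a promoter of myelinating cells and a ribosomal protein, RPL22, that gains an HA tag after recombination, so that an anti-HA antibody pulls down the mRNA on the ribosomes of the recombined cells. All mice, naive ones included, received tamoxifen. The dpi 2 mice were injured at the T9 level with 50 kdyn at a labelled age of 10 to 12 weeks. The labels give the same age for naive mice, which had no surgery.

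Each group had 3 tissue pools, each from 2 mice that the labels give as female. Each pool of thoracic cord segments gave 1 library of ribosome-bound RNA, called OL here, and 1 of total RNA from the same lysate. Naive tissue was collected together with that of the latest injured group, so injury, surgery, age at collection and the time since tamoxifen cannot be told apart between the groups. OL and total RNA were purified with different kits. The promoter that drives Cre can also be active in Schwann cells, and recombination does not reach every OL. The study describes an apparent contamination of the pulled-down RNA with microglia and macrophage mRNA after injury. An OL level below is therefore the level in the OL libraries.

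OLs wrap axons in myelin and supply them with metabolites, and contusion kills part of them within days while microglia, blood leukocytes and reactive astrocytes gather at the lesion. By construction the OL share of an mRNA goes up when its OL level rises or when the rest of the cord loses it, and it goes down when its OL level falls or when the rest of the cord gains it. A gene whose level follows the tissue keeps its share, however much it rises. In bulk RNA, fewer cells of a type and less RNA per cell cannot be told apart.

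The libraries held 25840127 to 31954139 counts. Both libraries of dpi 2 pool 2 held 2414 and 2604 counts on 4 Y-linked genes, against at most 13 in each other library, which goes against the female label. The OL library of pool 3 stood apart in both groups by its astrocyte RNA. The 15 astrocyte markers, Gfap and Slc1a2 among them, summed to 3364, 3195 and 19818 CPM (TMM-scaled counts relative to library size) in the naive OL libraries and to 4845, 2951 and 12918 CPM in those of dpi 2, so that pool 3 was above its group in both and above total RNA (8795 to 11876 CPM). Values without these pools are given beside the main counts and for some of the lists. The 30 myelin and OL markers were all enriched in OL in both groups at a log2 past 0.5, and all 23 neuron markers were depleted in naive OL.

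By dpi 2 the OL share of 450 genes had risen and that of 368 had fallen (2.71% and 2.22% of the genes tested, edgeR quasi-likelihood test with tissue pool as a block, Benjamini-Hochberg adjusted p, called q, under 0.05 and a log2 difference past 1). At an adjusted p under 0.05 alone 1757 genes passed (10.6%), 1004 upward and 753 downward. In 450 of the 450 risers the log2 ratios of the 3 dpi 2 pools lay above those of all 3 naive pools, and in 366 of the 368 fallers below (over all genes 18.4% lay above and 15.7% below). The calls were made on these same pools, so the separation describes the called genes and is no independent support for them. The median gene moved by 0.06. Counts of list members called below are to be read beside the shares of all genes, 2.71% up and 2.22% down. Without dpi 2 pool 2 the counts were 306 up and 253 down, without naive pool 3 they were 525 and 350, and without dpi 2 pool 3 they were 508 and 346. The lowest counts, 154 and 136, came without naive pool 2, and without naive pool 1 they were 237 and 184. The block changed the numbers little, with 508 up and 448 down in the fit without it. Scaling decided the split between directions, since TMM factors taken against a total RNA library moved the median gene to -0.18 and gave 224 up and 691 down (24.5% up against 55.0%). All differences below are relative to the main scaling.

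Most risers were depleted from OLs before injury. Of the 450, 410 were OL depleted in naive tissue (27.1% of all genes were, at log2 under -0.5). On dpi 2, 221 of these were still depleted, 154 were neither depleted nor enriched, and 35 were enriched. A further 34 went from neither to enriched, and 6 were enriched throughout. The median OL enrichment of the 450 went from -2.18 to -0.59. Because enrichment in naive tissue enters the difference itself, low starting values and positive differences share the naive libraries and are not independent.

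The fallers had the opposite starting point. Of the 368, 269 were OL enriched in naive tissue (21.7% of all genes), of which 63 were still enriched on dpi 2, 150 were neither and 56 were depleted. Their median OL enrichment went from 1.29 to -0.35.

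A difference of ratios has 2 components, the OL change and the total RNA change between naive and dpi 2. Among all genes 9.77% rose and 6.69% fell in OL, and 9.32% rose and 6.19% fell in total RNA (q under 0.05, log2 past 1). Of the 450 risers, 194 rose in OL with no call in total RNA, 36 rose in both, 63 fell in total RNA with no call in OL, 6 rose in OL and fell in total RNA, and 151 had neither component past its own threshold. The median OL change was 1.05 and the median total RNA change -0.47.

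Of the 368 fallers, 155 rose in total RNA with no call in OL, 87 fell in OL with no call in total RNA, 19 rose in both, 8 fell in both, 6 fell in OL and rose in total RNA, and 93 had neither. Their median OL change was -0.49 and the median total RNA change 0.99. The components thus differed by direction. A call in OL alone was the larger class of risers, and a call in total RNA alone was the larger class of fallers.

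**Figure D1:**
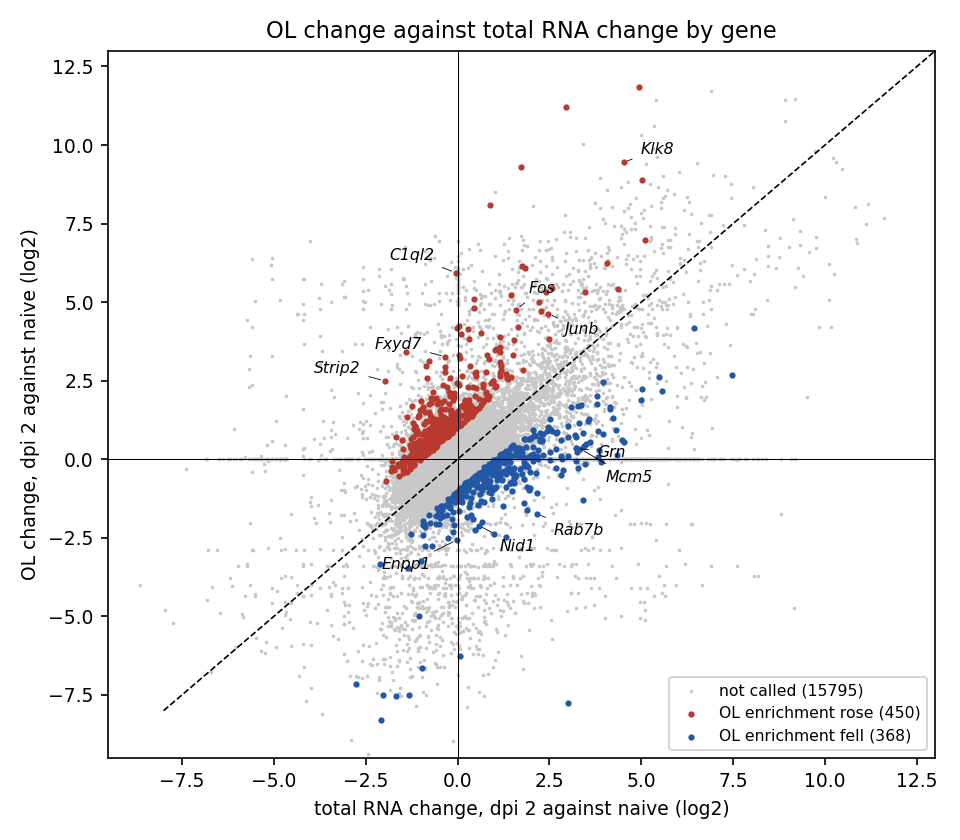
Each point is 1 gene, with the total RNA change (dpi 2 against naive, log2) on the horizontal and the OL change (log2) on the vertical axis, and genes called up or down for differential OL enrichment are coloured. Risers lie above the diagonal at a median OL change of 1.05, and fallers lie below it at a median total RNA change of 0.99.

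Fxyd7 (chr7:31042513-31051467, GRCm38), a regulator of the sodium pump best known from neurons, had 5.80, 6.08 and 6.33 CPM in naive OL and 62, 68.0 and 44.5 CPM in dpi 2 OL. In total RNA it had 66.6, 69.7 and 75.8 CPM in naive tissue and 50.9, 55.2 and 62.3 CPM on dpi 2. The OL groups did not overlap and the total RNA level was lower on dpi 2, so the log2 ratio went from -3.51, -3.50 and -3.57 to 0.28, 0.30 and -0.49. The difference was 3.57 ± 0.24 (SE, n = 3 pools per group, q = 0.00116).

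Slc9a3r2 (chr17:24639286-24650327), a PDZ scaffold that anchors membrane transporters, had the smallest unadjusted p of the risers. It went from 15, 15.6 and 13.5 CPM to 159, 118 and 133 CPM in OL, while total RNA stayed between 64.6 and 72.4 CPM in all 6 libraries. The OL libraries were far apart and the total RNA libraries overlapped. The log2 ratio moved from -2.10, -2.18 and -2.28 to 1.29, 0.71 and 0.88, a difference of 3.15 ± 0.18 (q = 0.00103).

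Synaptotagmin 4 (Syt4), a vesicle protein of neurons and glia, rose in OL from 7.37, 4.67 and 4.11 CPM to 73.5, 45.7 and 40.7 CPM, with 158 to 218 CPM in total RNA in both groups. Its difference was 3.27 ± 0.22, and it was still OL depleted on dpi 2 (log2 enrichment -5.06 in naive tissue and -1.79 on dpi 2). Parvb, a parvin that links integrins to actin, rose in both kinds of RNA. It went from 10.7, 10.8 and 13.9 to 131, 152 and 95.1 CPM in OL and from 24.9, 28.4 and 30.7 to 57.5, 72.2 and 57.2 CPM in total RNA. The OL rise was the larger one, with a difference of 2.25 ± 0.17.

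The other genes among the 12 risers of smallest p had differences between 1.52 and 3.22. Snx10 is a sorting nexin (2.18 ± 0.18), and Flot1 a raft scaffold (1.52 ± 0.12) with an OL change of 2.51 and a total RNA change of 0.98. Dlk1, a membrane protein related to Notch ligands, had 2.85 ± 0.23, with an OL change of 1.85 and a total RNA change of -0.99. The remaining ones, Ptpn5, Asns, Junb, Fos and Slc18a3, are described with their groups. Each of the 12 kept its call in all 6 fits without 1 pool.

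**Figure D2:**
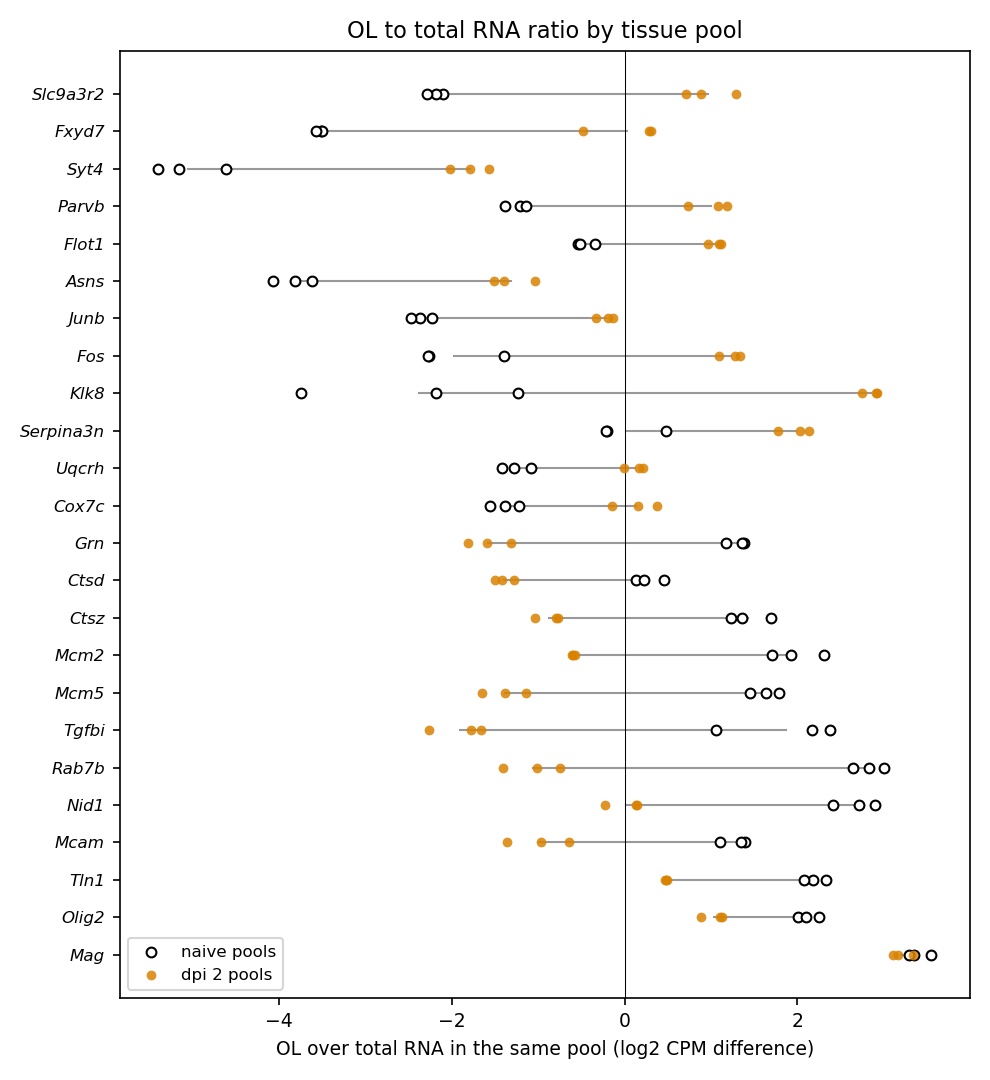
Log2 ratio of OL to total RNA (CPM with a prior count of 2) in each tissue pool for 24 named genes, with 3 naive and 3 dpi 2 pools as points. For Fxyd7 the naive pools sit between -3.57 and -3.50 and the dpi 2 pools between -0.49 and 0.30, and for Grn the order is the reverse, with naive pools at 1.18 to 1.38 and dpi 2 pools at -1.81 to -1.32.

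Several large rises were in genes with few or no counts in naive OL. Klk8 (chr7:43797577-43803826), a secreted kallikrein protease also called neuropsin, had 0.786, 0.583 and 0 CPM in naive OL and 311, 346 and 287 CPM on dpi 2. In total RNA it rose as well, from 1.94, 2.89 and 0.843 CPM to 41.5, 45.8 and 42.8 CPM. Both kinds of RNA were fully separated between groups, and the log2 ratio went from -1.23, -2.18 and -3.74 to 2.90, 2.92 and 2.74. The difference was 4.98 ± 0.47 (q = 0.00227).

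C1ql2, a secreted synapse organiser of the complement C1q family, had 0.124, 0.375 and 0.188 CPM in naive OL and 13.8, 16.9 and 12.1 CPM on dpi 2. Total RNA held 4.04, 4.64 and 2.53 CPM in naive tissue and 3.75, 4.39 and 2.65 CPM on dpi 2, so the total RNA groups overlapped. The difference was 6.04 ± 0.53. Cacng5, an auxiliary subunit of AMPA receptors, went from 1.61, 2.63 and 0.791 to 75.5, 47.1 and 48.5 CPM in OL and from 17.4, 16.4 and 22.5 to 33, 19.98 and 24.4 CPM in total RNA, with a difference of 4.70 ± 0.48.

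Gdnf, a neurotrophic factor for motor neurons, was without counts in all 3 naive OL libraries and had 352, 265 and 183 counts in those of dpi 2. At 10.2 ± 3.12 CPM (SD, n = 3) it was at least 84.4-fold higher than the level of 3 counts per library. Total RNA held 4, 9 and 14 counts in naive tissue and 106, 81 and 48 on dpi 2. Its call was lost without dpi 2 pool 1 (q = 0.057). The study lists Gdnf among markers of the Schwann cell response to nerve injury, and the part of Schwann cells in its rise was not tested. Slc10a6, a steroid sulfate transporter, went from no count to 229, 772 and 213 counts in OL, at least 131-fold higher, but dpi 2 pool 2 held most of them and the call was lost in 5 of 6 fits without 1 pool. Naalad2, a peptidase that releases glutamate from a neuropeptide, went from no count to 34, 44 and 13 counts, at least 9.69-fold higher, and lost its call in all 6 such fits.

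Among 21 kallikreins and serpins, protease genes and the inhibitors of such proteases, 3 rose (14.3%, against 2.71% of all genes) and none fell. By sign, 10 lay above 0 and 11 below, and the median was -0.10 (0.32 with the 4 genes that have a group without counts set at their bound). The study names all 3 risers as OL-upregulated from these same samples. Besides Klk8 they were Serpina3n and Serpina3c, secreted serine protease inhibitors of a multigene family whose copies can share reads, so the values of these inhibitors are uncertain. Serpina3n (chr12:104406729-104414329) rose in OL from 85.1, 46.5 and 44.2 CPM to 7520, 7346 and 7502 CPM, and in total RNA from 61.2, 53.7 and 51.2 to 1847, 2150 and 1705 CPM. Both groups of libraries were fully separated, and the OL share rose by 1.96 ± 0.21. Serpina3c had 2, 0 and 0 counts in naive OL and 540, 803 and 174 on dpi 2, with 26, 43 and 24 and then 145, 147 and 49 counts in total RNA.

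The genes of the respiratory chain moved in one direction. Its 75 nuclear-encoded subunits, which with the mitochondrial ones build complexes I to IV and the ATP synthase, all had a difference above 0, between 0.14 and 1.52 (5 of them below 0 in 1 or more of the alternatives named further on). Of these, 25 rose (33.3%, against 2.71% of all genes) and none fell, 56 had q under 0.05, and the median was 0.88. In naive tissue 47 of the 75 were OL depleted and none was enriched. On dpi 2, 2 were depleted and 13 enriched (of all genes 24.6% were depleted and 20.4% enriched), and the median enrichment went from -0.69 to 0.15. The summed level was 7577 to 9134 CPM in naive OL and 9993 to 11491 CPM in dpi 2 OL, against 11914 to 12084 and 9309 to 10160 CPM in total RNA, so both moved and in opposite directions. Of the 25 risers 14 also passed the threshold for the OL change, and none passed it for total RNA.

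Uqcrh (chr4:116066965-116075071), the hinge subunit of complex III, had 80.8, 75.0 and 89.3 CPM in naive OL and 168, 193 and 175 CPM on dpi 2. In total RNA it had 215, 182 and 189 CPM and then 150, 194 and 152 CPM, and these groups overlapped. Its log2 ratio went from -1.41, -1.28 and -1.08 to 0.16, -0.01 and 0.21, and the difference was 1.38 ± 0.13. Cox7c, a small subunit of complex IV, went from 19.7, 21.2 and 24.9 to 50.9, 69.3 and 70.7 CPM in OL, with 54.5 to 62.4 CPM in total RNA throughout, and had the largest difference of the list (1.52 ± 0.18, q = 0.0045). Cox7b had 1.46, Atp5e 1.32, Cox5b 1.28 and Ndufb5 1.25.

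How many subunits passed the threshold depended on the libraries and the scaling. The count was 26 without dpi 2 pool 2, 32 without naive pool 3 and 31 without dpi 2 pool 3, but 12 without naive pool 1 and 13 without naive pool 2, at medians of 0.86 to 0.92. With an offset for gene length and GC content 14 rose and the median was 0.63, and with TMM factors against a total RNA library 6 rose and the median was 0.64. Atp5g2 (down to -0.22), Ndufv3, Uqcrc2, Atp5c1 and Sdha lay below 0 in 1 or more alternatives of scaling, test or length correction. Many of these subunits have processed pseudogenes, and how reads on such copies were counted is not given in the sources used here.

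Other housekeeping machines moved less. Of 83 cytosolic ribosomal protein genes 4 rose past the threshold (Rpl38, Rps15a, Rps21 and Rpl34, 4.82%) and none fell, with a median of 0.45. At q under 0.05 alone 30 were upward and 1 downward, and 78 lay above 0. With the length and GC offset 2 rose, and with TMM factors against a total RNA library 1 rose at a median of 0.21. By level, 70 of the 83 rose in OL and 29 in total RNA. Rpl38 went from 34.3, 29.5 and 31.0 to 104, 131 and 125 CPM in OL and from 70.4, 66.8 and 70.6 to 89.4, 119 and 101 CPM in total RNA, a difference of 1.36 ± 0.12 that went to 0.84 with the offset and lost its call. Of 78 mitochondrial ribosomal proteins 2 rose past the threshold (median 0.50), which is 2.56% and close to the share of all genes. Below that threshold the list leaned upward, with 75 members above 0 (8864 of all 16613 genes were). Of the 78, 15 had q under 0.05, all upward (1004 of all genes were upward). With TMM factors against a total RNA library none rose and the median was 0.25. Of 31 proteasome subunits none passed the threshold in either direction by edgeR (median 0.29), and 11 had q under 0.05, all upward. Of 23 cholesterol synthesis genes none passed it (median 0.31), with 4 at q under 0.05. Of 15 glycolysis genes 1 fell, hexokinase 2 (Hk2, -1.89 ± 0.45), with a call that was lost in each of the 6 fits without 1 pool. The median of the 15 was 0.00, and it went to 0.24 without naive pool 3, 0.12 without dpi 2 pool 2 and -0.16 without dpi 2 pool 3.

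The integrated stress response is a programme in which the factor ATF4 turns on genes for amino acid synthesis and uptake. Of 41 genes listed for it 6 rose (14.6%, against 2.71% of all genes) and none fell. The 6 were Chac1, Pycr1, Slc7a1, Asns, Aldh18a1 and Atf4 itself, and all 6 rose in OL past the threshold with no call in total RNA. The study names Chac1, Pycr1 and Aldh18a1 from these same samples, so their rise is no independent evidence. The list's median was 0.19, and it turned to -0.06 with TMM factors against a total RNA library, when 4 rose and 1 fell. Without dpi 2 pool 2, naive pool 1 or naive pool 2 the count was 3, and without dpi 2 pool 1 it was 2. Aldh18a1 lost its call in 4 of 6 fits without 1 pool, with library sizes alone and with that TMM reference.

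Asns (chr6:7675169-7693254), which makes asparagine, had 6.58, 5.54 and 7.50 CPM in naive OL and 23.6, 18.2 and 24.0 CPM on dpi 2. In total RNA it went the other way, from 93.2, 93.8 and 93.0 to 62.3, 51.7 and 49.2 CPM. Neither pair of groups overlapped, and the difference was 2.53 ± 0.20 (q = 0.00129). Slc7a1, the main importer of arginine and lysine, rose in OL from 3.89, 5.04 and 8.18 to 40.6, 32.8 and 29.3 CPM, with 46.2 to 61.1 CPM in total RNA (2.85 ± 0.26). Both kept their calls in all 6 fits without 1 pool.

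Atf4 went from 87.6, 92.7 and 71.2 to 283, 289 and 190 CPM in OL and from 105, 108 and 98.7 to 158, 159 and 137 CPM in total RNA. It rose in both, and its difference of 1.05 ± 0.15 lies at the threshold, so that 3 of 6 fits without 1 pool no longer called it (differences of 0.97 to 1.23). Chac1, which breaks down glutathione, had 0.455, 0.292 and 0.414 CPM in naive OL and 9.72, 6.94 and 1.77 CPM on dpi 2, with 6.87 to 11.5 CPM in total RNA. Its difference of 3.65 ± 0.75 had q = 0.0229, and up to 0.099 without 1 pool. Pycr1, the last enzyme of proline synthesis, had 0.662, 0.333 and 0.377 CPM and then 11.1, 7.02 and 4.48 CPM in OL, with 1.53 to 3.51 CPM in total RNA (3.43 ± 0.77, q = 0.0306, and up to 0.122 without 1 pool).

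The promoters of 3 of the 6 hold a composite element of the kind that ATF4 and its partners bind, TGATGNAA, in the 250 bases before the gene start (RefSeq, GRCm38.p6, both strands searched). It was found in 9 of 33 listed genes with a promoter sequence (27.3%) and in 1056 of 27025 promoters (3.91%). The list was made of known members of this programme, so a high share in it is a description of the list. The 3 elements are shown in capitals on the strand of the gene, that of Chac1 being in reverse orientation.
Chac1, chr2:119351038-119351067, + strand: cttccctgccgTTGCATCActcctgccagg
Asns, chr6:7693214-7693243, - strand: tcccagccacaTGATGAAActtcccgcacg
Pycr1, chr11:120643833-120643862, - strand: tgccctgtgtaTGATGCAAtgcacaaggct

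They lie 193, 23 and 103 bases before the RefSeq start. The gene spans printed here follow GENCODE, where Asns starts further upstream, so that its window lies inside the printed span. A match of letters does not show that a factor was bound in these cells.

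**Figure D3:**
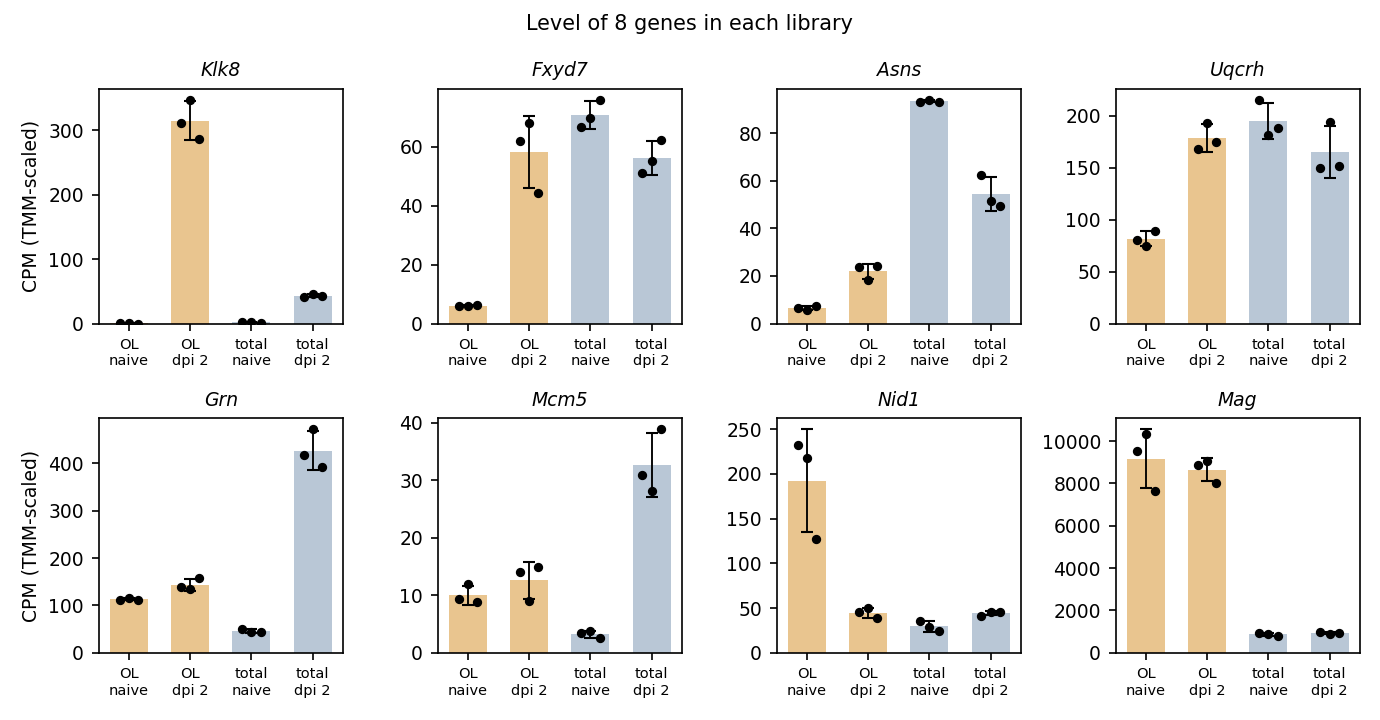
CPM in each of the 12 libraries for Klk8, Fxyd7, Asns, Uqcrh, Grn, Mcm5, Nid1 and Mag, with bars at the mean of 3 libraries and error bars of 1 SD. Asns rises in OL to 18.2 to 24.0 CPM while total RNA drops to 49.2 to 62.3 CPM, Grn rises in total RNA to 392 to 472 CPM, and Nid1 drops in OL to 38.8 to 50.0 CPM.

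Some genes listed for growth factor signalling and its feedback also gained OL share. Of 23 genes listed for the ERK pathway 5 rose (21.7%, against 2.71% of all genes) and none fell, with a median of 0.41. All 5 rose past the threshold in OL. The study names Ptpn5, Spred3, Spry4 and Fgfbp3 as OL-upregulated on dpi 2 from these same samples, so their rise is no independent evidence. Ptpn5, a tyrosine phosphatase that inactivates ERK, had 5.01, 4.75 and 4.79 CPM in naive OL and 14.1, 15.8 and 18.9 CPM on dpi 2, and in total RNA 105, 106 and 117 and then 76.2, 66.1 and 81.6 CPM. The groups did not overlap in either kind of RNA, and the difference was 2.29 ± 0.16. The inhibitors Spred3 (2.18 ± 0.25) and Spry4 (2.01 ± 0.28) rose as well. Fgfbp3, which carries FGF, rose by 1.52 with a call that was lost in 4 of 6 fits without 1 pool.

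Immediate early genes, which are switched on within minutes of a stimulus and many of which encode transcription factors, moved in both directions. Of 20, 4 rose (20%, against 2.71% of all genes) and 2 fell (10%, against 2.22%), with a median of 0.99. By level, 12 rose in OL and 11 in total RNA. Fos went from 5.30, 3.04 and 2.41 to 99.5, 101 and 90.7 CPM in OL and from 14.1, 14.8 and 11.9 to 46.5, 40.1 and 37.5 CPM in total RNA. Junb went from 2.03, 1.96 and 2.22 to 48.0, 54.5 and 52.6 CPM in OL and from 9.75, 10.4 and 12.6 to 54.9, 68.5 and 57.8 CPM in total RNA. Both rose in every dpi 2 library of both kinds, more so in OL, with differences of 3.22 ± 0.26 and 2.17 ± 0.17. Egr1 (2.02) and Ier3 (2.79) rose too, Ier3 with a call lost in 4 of 6 fits without 1 pool.

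Jun did the reverse. It went from 207, 209 and 130 to 162, 149 and 145 CPM in OL, which overlap, and from 62.3, 65.9 and 53.5 to 133, 140 and 118 CPM in total RNA, so that its share fell by 1.34 ± 0.15. Klf6 fell by 1.08, with a call lost in 2 of 6 fits without 1 pool. The AP-1 partners Fos, Junb and Jun therefore differed in sign.

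Neuronal transcripts took part in the rise. Of 23 neuron markers 4 rose (17.4%, against 2.71% of all genes) and 21 lay above 0, with a median of 0.51. Their summed level fell in total RNA, from 15053 to 16152 CPM in naive tissue to 6864 to 8592 CPM on dpi 2, and rose in OL, from 1393 to 1674 CPM to 1890 to 2362 CPM in OL. By marker, the median change was -1.18 in total RNA and -0.66 in OL, so a typical marker fell in both and the summed rise in OL came from a few. Tubb3, a tubulin of neurons and of young cells of other lineages, went from 339, 366 and 339 to 860, 1074 and 513 CPM in OL, with 468 to 612 CPM in total RNA (1.40, lost in 2 of 6 fits without 1 pool). Eno2, the neuronal enolase, went from 70.2, 55.6 and 48.9 to 79.6, 70.5 and 90.0 CPM in OL and from 948, 1069 and 1011 to 541, 437 and 588 CPM in total RNA (1.43).

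For Eno2 total RNA was the larger component (a change of -0.95, against 0.46 in OL), and for Tubb3 it was OL (1.23, against -0.24 in total RNA). Neither gene's groups overlapped in either kind of RNA, though for Eno2 the nearest OL libraries had 70.2 and 70.5 CPM. The other two were the synaptic vesicle protein Syp (1.13 ± 0.22, total RNA change -0.72) and the growth cone protein Stmn2 (1.09), each lost in at least 4 of 6 fits without 1 pool. On dpi 2, 20 of the 23 markers were still OL depleted. Among the top risers, Fxyd7, Syt4, Ptpn5, Slc18a3 (the vesicular acetylcholine transporter) and Dlk1 are also expressed in neurons, and the part of neuronal RNA in their rise was not tested.

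Lysosomal genes were the first group of fallers. The lysosome is the organelle that digests taken-up material, and microglia and macrophages are rich in it. Of 37 lysosomal genes 10 fell (27.0%, against 2.22% of all genes) and none rose, with a median of -0.33. Of the 10, 8 rose in total RNA past the threshold. The summed level went from 8843 to 9094 CPM to 12170 to 13020 CPM in total RNA and from 13948 to 14907 CPM to 12571 to 13018 CPM in OL. Beside it, the 21 microglia and macrophage markers went from 558 to 718 CPM to 3408 to 4032 CPM in total RNA and from 86.6 to 113 CPM to 208 to 284 CPM in OL, and the part of these cells in the result was not tested. Without dpi 2 pool 2, 8 fell, and over the fits without 1 pool 7 to 9.

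Grn (chr11:102430315-102437048), which encodes the lysosomal growth factor progranulin, had 112, 115 and 111 CPM in naive OL and 138, 134 and 157 CPM on dpi 2. In total RNA it went from 49.7, 44.3 and 43.2 to 418, 472 and 392 CPM. Both kinds rose with no overlap, total RNA far more, and the log2 ratio went from 1.18, 1.38 and 1.35 to -1.60, -1.81 and -1.32. Its difference of -2.88 ± 0.16 (q = 0.00103) had the smallest p of all fallers.

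Ctsd, a protease of the lysosome, went from 309, 321 and 354 to 592, 616 and 638 CPM in OL and from 281, 274 and 259 to 1588, 1737 and 1546 CPM in total RNA (-1.67 ± 0.13). Ctsz, another cathepsin, went from 115, 115 and 121 to 181, 184 and 208 CPM in OL and from 48.7, 45.1 and 37.3 to 314, 379 and 355 CPM in total RNA (-2.30 ± 0.16). As for Grn, the level in the OL libraries did not fall for either gene, and the part of microglia and macrophage RNA in that level was not tested. Gusb (-2.39 ± 0.20), Lipa (-1.90), Ctsa (-1.49), Ctsl (-1.22) and Galc (-1.001) fell too, and the calls of Ctsl and Galc were each lost in 5 of 6 fits without 1 pool.

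Npc1, which exports cholesterol from lysosomes, differed in kind. It went from 1330, 1417 and 985 to 437, 374 and 392 CPM in OL and from 205, 184 and 151 to 140, 115 and 143 CPM in total RNA, a fall in both that was larger in OL (-1.18). Outside that list, the lysosomal hydrolases Man2b1 (-1.96 ± 0.14) and Arsb (-1.81 ± 0.14) also fell in OL, Arsb from 143, 160 and 121 to 51.2, 45.0 and 52.6 CPM, with total RNA at 95.0 to 96.3 and then 110.5 to 128 CPM. Among the 12 fallers of smallest p were also the lysosomal enzyme Lgmn (-2.17 ± 0.16) and the ferritin light chain Ftl1 (-1.56 ± 0.11). Subunits of the proton pump that acidifies the organelle went the other way, with Atp6v1c1 (0.90), Atp6v1b2 (0.74), Atp6v1d (0.70) and Atp6v1e1 (0.53) at q under 0.05 but under the threshold of 1.

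The palindrome CACGTG, the core of the element that the lysosomal regulator TFEB binds, was found in the 250 bases before the start in 3 of the 8 fallen lysosomal genes that have a promoter sequence in RefSeq, in 10 of 30 listed genes (33.3%) and in 1854 of 27025 promoters (6.86%). The share among the fallen genes (37.5%) was near that of the list. The list was made of lysosomal genes, so a high share in it is a description of the list. The palindrome is shown in capitals in 1 window for each of the 3 genes.
Ctsa, chr2:164833743-164833772, + strand: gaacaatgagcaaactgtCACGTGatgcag
Ctsd, chr7:142387907-142387936, - strand: cgcccgcgtctCACGTGacccgttgagggc
Ctsl, chr13:64370738-64370767, - strand: gcgttagaagcCACGTGctgatctaaattc

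These lie 12, 98 and 236 bases before the RefSeq start on GRCm38.p6, and Ctsd holds a further one 245 bases before it. The window shown for Ctsd lies inside its GENCODE span, which starts further upstream. A match of letters does not show that a factor was bound here either.

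Cell division genes rose in the tissue and lost OL share. Of 26 cell cycle genes all 26 rose in total RNA and 14 rose in OL. The OL share of 11 fell (42.3%, against 2.22% of all genes) and that of none rose. The median difference was -1.77, or -2.17 with the 5 genes that have a group without counts set at their bound. Their summed level went from 86.2 to 92.5 CPM to 639 to 706 CPM in total RNA and from 201 to 245 CPM to 243 to 306 CPM in OL. Without dpi 2 pool 2, 8 fell.

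The 11 included Mcm2 to Mcm7, the 6 subunits of the helicase that opens DNA for replication, and Pcna, its sliding clamp. Mcm5 (chr8:75109569-75128439) had 9.31, 11.9 and 8.78 CPM in naive OL and 14, 8.94 and 14.9 CPM on dpi 2, which overlap, and 3.36, 3.78 and 2.50 CPM and then 30.9, 28.2 and 38.8 CPM in total RNA, which do not. It fell by 3.04 on the log2 scale (SE 0.26). Mcm2 went from 32.1, 28 and 23.2 to 20.6, 19.3 and 22 CPM in OL and from 8.43, 5.62 and 7.09 to 31.4, 28.8 and 33.4 CPM in total RNA (-2.58 ± 0.22). Mcm2 and Mcm5 exceeded their total RNA level in the OL library of every naive pool. Tpx2, Kif11, Cenpf and Aurka, genes of the mitotic spindle, completed the list, and the last 3 lost their calls in at least 4 of 6 fits without 1 pool. Cdc20, which triggers anaphase, fell by 4.31 (SE 0.62) with 14.5, 14.5 and 13.5 CPM in dpi 2 total RNA against 0.775, 0.857 and 0.468 CPM in naive tissue. Ndc80 of the kinetochore (-4.33) and the kinesin Kif20b (-3.64) fell as well, with calls lost in 5 and 3 of 6 such fits.

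Further genes went from OL enriched to OL depleted. Tgfbi, an extracellular adhesion protein, went from 43.5, 41.9 and 21.3 to 63.5, 49.8 and 51.3 CPM in OL and from 8.33, 9.24 and 10.2 to 201, 240 and 176 CPM in total RNA (-3.78 ± 0.35). Postn, a matrix protein of fibroblasts, fell by 3.99 (SE 0.75) with its call lost in 2 of 6 fits without 1 pool, and Il11, a cytokine related to interleukin-6, by 4.50 (SE 0.95) with its call lost in 4. Itgb5, an integrin chain, fell by 1.84 (SE 0.13) with an OL change of -0.35 and a total RNA change of 1.47.

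**Figure D4:**
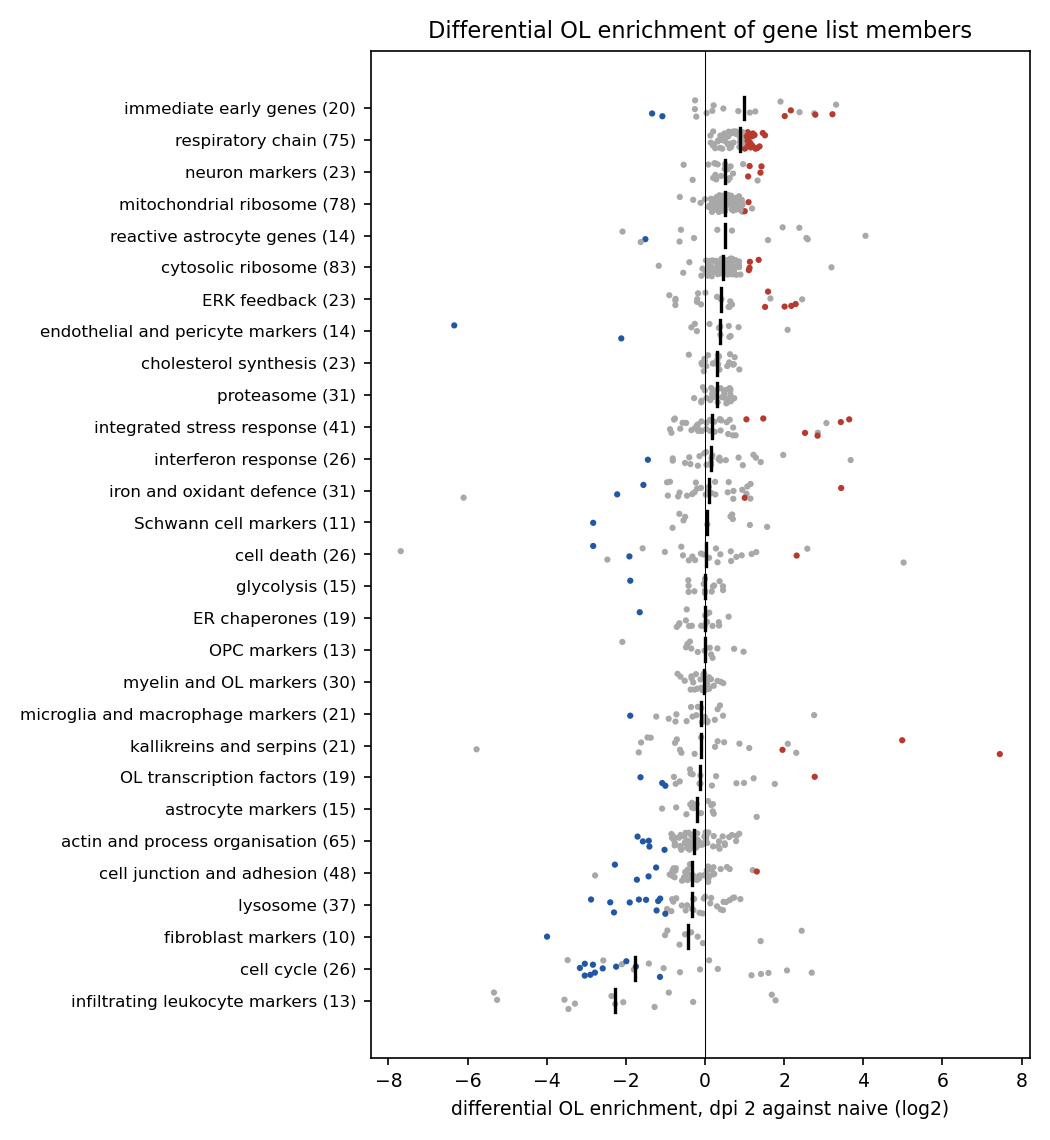
Differential OL enrichment (log2) of the tested members of each gene list, 1 point per gene, with the list's median and its number of tested genes. With the scaling shown, all 75 respiratory chain genes lie above 0 at a median of 0.88 (Atp5g2, Ndufv3, Uqcrc2, Atp5c1 and Sdha fall below 0 in 1 or more alternatives), while the cell cycle genes have a median of -1.77 and the myelin and OL markers one of -0.03.

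In other fallers the OL level itself dropped. Nid1 (chr13:13437551-13512269), a basement membrane glycoprotein, had 233, 218 and 127 CPM in naive OL and 45.2, 50.0 and 38.8 CPM on dpi 2. Total RNA held 35.4, 29.1 and 23.9 CPM and then 41.3, 45.1 and 45.3 CPM. OL fell without overlap while total RNA rose a little, and the difference was -2.66 ± 0.18.

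Of 48 cell junction and adhesion genes 20 fell in OL and 15 in total RNA. Their OL share fell in 4 (8.33%, against 2.22% of all genes) and rose in 1 (2.08%, against 2.71%), with a median of -0.32. Mcam (chr9:44134469-44142727), an immunoglobulin-type adhesion receptor, went from 159, 183 and 159 to 25.9, 23.3 and 38.7 CPM in OL, and its difference was -2.28 ± 0.20. Tln1, the talin that couples integrins to actin, went from 396, 412 and 339 to 188, 197 and 232 CPM in OL and from 87.2, 82.0 and 80.1 to 136, 140 and 166 CPM in total RNA (-1.72 ± 0.11). The semaphorin Sema6a (-1.43) and the integrin chain Itgb1 (-1.23) fell, and the neuronal integrin ligand Adam23 rose (1.31) as total RNA lost it.

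Of 65 genes for actin and process organisation 5 fell (7.69%, against 2.22% of all genes) and none rose, with a median of -0.29. These were Msn (-1.70), which links actin to the membrane, Wasf2 (-1.57), an activator of actin branching, Arhgef37 (-1.42), a guanine nucleotide exchange factor, the scaffold Iqgap1 (-1.40) and the membrane skeleton protein Epb41l2 (-1.02). Msn rose in total RNA from 67.9 to 89.8 CPM in naive tissue to 368 to 425 CPM on dpi 2 and in OL from 132 to 206 CPM to 232 to 338 CPM. The calls of Arhgef37, Iqgap1 and Epb41l2 were lost in 5, 2 and 3 of 6 fits without 1 pool.

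The identity genes of OLs divided. Of 19 OL transcription factors 3 fell (15.8%, against 2.22% of all genes) and 1 rose (5.26%, against 2.71%). Of the 19, 6 had q under 0.05 downward, and the median enrichment went from 2.06 to 1.06 with a median difference of -0.14. Olig2 (chr16:91225457-91228677), required to specify the lineage, went from 348, 415 and 412 to 173, 145 and 191 CPM in OL, with no overlap, and stayed between 67.1 and 104 CPM in total RNA, a difference of -1.08 ± 0.13. Olig1 went from 1351, 1511 and 1701 to 897, 746 and 1112 CPM in OL and from 350, 369 and 369 to 424, 388 and 498 CPM in total RNA (-1.001 ± 0.12). Both lie near the threshold. Olig2 was no longer called without dpi 2 pool 3 and Olig1 without that pool, dpi 2 pool 2 or naive pool 3. Sox10, which drives myelin genes, had -0.79 (q = 0.007), under the threshold.

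Tcf7l2, a Wnt effector expressed in newly formed OLs, fell by 1.63 (SE 0.36) as total RNA rose from 3.33, 5.11 and 5.53 to 9.90, 11.8 and 10.2 CPM, and lost its call in 5 of 6 fits without 1 pool. Sox4, a factor that holds back OL maturation, was the riser, from 2.53, 1.88 and 4.41 to 41.1, 39.3 and 50.1 CPM in OL and from 16.4, 11.7 and 11.9 to 30.3, 32.9 and 26.7 CPM in total RNA. It rose in both without overlap, and its difference was 2.77 ± 0.38 (q = 0.00637).

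Few myelin genes changed their OL share. None of the 30 myelin and OL markers passed the threshold, their differences lay between -0.69 and 0.46 with a median of -0.03, and their median enrichment was 2.71 in naive tissue and 2.68 on dpi 2. With edgeR 3 had q under 0.05, all downward (Anln -0.69, Ugt8a -0.62 and Enpp2 -0.51). Mag, an adhesion protein of the inner myelin layer, had 7623 to 10338 CPM in naive OL and 8033 to 9058 CPM on dpi 2, with a difference of -0.19 ± 0.13.

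The lipid carrier Apod rose in both kinds of RNA. It rose in OL from 7490, 7827 and 7702 to 36839, 59647 and 46578 CPM and in total RNA from 847, 738 and 944 to 4241, 6405 and 5138 CPM. Both changes were 2.64, and the difference was -0.02.

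Iron and oxidant genes went both ways. Of 31, 2 rose (6.45%, against 2.71% of all genes) and 2 fell (6.45%, against 2.22%), with a median of 0.09. Steap3, a reductase that prepares iron for release from endosomes, went from 1.20, 1.04 and 8.44 CPM in naive OL to 182, 161 and 92.7 CPM on dpi 2. The naive pools did not match, since their log2 ratios were -2.72, -2.76 and 0.29, the last in pool 3. The difference was 3.44 ± 0.75, and its q went up to 0.104 in the fits without 1 pool, 5 of which lost the call. Sod2, the mitochondrial superoxide dismutase, rose by 1.01, with a call lost in 3 of them.

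Hmox1, which breaks down heme, rose far in both, from 7.16, 6.04 and 13 to 159, 114 and 202 CPM in OL and from 5.98, 5.30 and 7.52 to 586, 622 and 418 CPM in total RNA. Its share fell by 2.22 (SE 0.35). Ftl1 behaved alike, with an OL change of 1.70 and a total RNA change of 3.27.

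Of 26 cell death genes 1 rose (Tnfrsf12a, a TNF family receptor, 2.32 ± 0.57) and 2 fell (Ngfr, the neurotrophin receptor p75, -2.82 ± 0.32, and the kinase Ripk1, -1.91 ± 0.47), with a median of 0.04. That is 3.85% up and 7.69% down, against 2.71% and 2.22% of all genes. The calls of Tnfrsf12a and Ripk1 were each lost in 5 of 6 fits without 1 pool. Ngfr stayed at 7.95 to 17.9 CPM in OL and went from 2.94, 3.02 and 3.47 to 23.6, 39.2 and 12.4 CPM in total RNA. It is also a marker of Schwann cells, whose 11 markers summed to 745 to 1302 and then 995 to 1604 CPM in OL, with 1 faller (Ngfr) and a median of 0.06. Of 26 interferon response genes 1 fell (Ifit2, -1.44), and of 19 ER chaperone genes 1 fell (Edem1, -1.65, which helps to degrade misfolded proteins).

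Lists of other cell types had few calls, although most of them changed in level. The microglia and macrophage markers had median changes of 2.79 in OL and 3.03 in total RNA and a median difference of -0.09, and 1 of the 21 fell. The 15 astrocyte markers had no call by edgeR (none had q under 0.05) and a median of -0.21, which went to 0.71 without naive pool 3, 0.55 without dpi 2 pool 2 and -0.91 without dpi 2 pool 3. Of 14 reactive astrocyte genes 1 fell (Cp, a copper ferroxidase, -1.51, lost in 5 of 6 fits without 1 pool). The 13 OPC markers had no call and a median of -0.01, which went to 0.48 without naive pool 3, 0.31 without dpi 2 pool 2 and -0.33 without dpi 2 pool 3. The 13 infiltrating leukocyte markers had no call by edgeR, against 2 fallers by the DESeq2 Wald test and 1 without dpi 2 pool 1, with a median of -2.27, or -3.14 with the 7 genes that have a group without counts at their bound, and their summed level went from 17 to 22.2 CPM to 136 to 235 CPM in total RNA and from 1.3 to 2.0 CPM to 12.6 to 20.8 CPM in OL. Of 14 endothelial and pericyte markers 2 fell (Abcc9 and Kdr, lost in 3 and 5 of 6 fits without 1 pool), and of 10 fibroblast markers 1 (Postn).

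Of 41 genes that the study names for its time course and that were chosen on these same samples, 24 rose and 1 fell, with a median of 1.59, which is no independent evidence of their direction. Of the 24, 23 rose in OL. Among those not yet described, Sphk1, which makes sphingosine 1-phosphate, had 3.85 ± 0.69, Acsl5, which activates fatty acids, 2.35, the glutamate receptor subunit Grik3 2.01, Bcat1, which transfers amino groups from branched-chain amino acids, 1.38 and the glycolytic regulator Pfkfb4 1.20. The calls of these 5 were lost in 2, 2, 1, 3 and 3 of 6 fits without 1 pool. Spp1, the secreted osteopontin, rose in OL from 4.3, 5.3 and 4.9 to 167, 240 and 215 CPM and in total RNA from 147, 154 and 119 to 2843, 3395 and 2520 CPM. Its difference of 1.03 lay at the threshold, and 5 alternatives of scaling, test or length correction did not call it. The faller was Usp30, a deubiquitinase of mitochondria, from 195, 219 and 182 to 54.6, 40.5 and 38.0 CPM in OL and from 54.7, 56.0 and 56.4 to 29.0, 31.9 and 30.3 CPM in total RNA (-1.30 ± 0.19). The count of risers was 11 without naive pool 2, 12 without naive pool 1, 15 without dpi 2 pool 1 and 19 without dpi 2 pool 2, with 1 faller in each.

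In 12 genes OL and total RNA moved past the threshold in opposite directions. Strip2, a part of a phosphatase complex, went from 1.32, 1.58 and 0.829 to 6.37, 7.26 and 7.42 CPM in OL and from 35.3, 28.4 and 31.6 to 11.9, 6.51 and 5.81 CPM in total RNA, so that the levels met. Its difference was 4.57 ± 0.46. Slc18a3, which loads acetylcholine into vesicles, went from 2.57, 2.50 and 2.26 to 4.69, 6.42 and 7.65 CPM in OL and from 78.3, 71.5 and 63.4 to 28.1, 33.2 and 40.6 CPM in total RNA (2.41 ± 0.18).

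Rab7b (chr1:131688695-131715439), a small GTPase of late endosomes, crossed in the other direction. It fell in OL from 54.9, 58.1 and 29.2 to 17.2, 11.4 and 13.9 CPM and rose in total RNA from 6.78, 8.13 and 4.62 to 28.9, 30.3 and 28.1 CPM. No library of one group overlapped those of the other in either kind, and the difference was -3.89 ± 0.24 (q = 0.00116). Rab7b thus went from OL enriched (log2 2.84) to OL depleted (-1.06).

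A few fallers were left with no or almost no counts in dpi 2 OL. Pcdhac2, a clustered protocadherin that shares its last exons with its neighbours so that its counts are uncertain, had 43, 33 and 23 counts in naive OL and none on dpi 2, at least 11.7-fold lower than before. Lin7a, a synaptic scaffold, went from 27, 18 and 13 counts to none, at least 6.84-fold lower. Both also fell in total RNA, Lin7a from 496 to 613 counts to 182 to 211 counts. Alms1, a centrosome protein, went from 39, 40 and 52 counts to 3, 0 and 1 in OL. The calls of these 3 genes were lost in 3, 4 and 5 of 6 fits without 1 pool.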

How the data were processed

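RNA from naive and dpi 2 cord was sequenced on an Illumina NextSeq 500 by the authors, aligned to the mouse genome (mm10) with STAR after FastQC 0.10.1, and counted on genes with HTSeq 0.10.0. The deposited values are raw read counts per gene without normalization, in a single table. Strand settings of the counting are not given in the sources used here, so overlapping and antisense genes cannot be told apart.

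The 12 libraries were fitted with edgeR 4.0.16 (R 4.3.3). A gene was tested from 10 counts over the 12 libraries upward, and TMM factors scaled the libraries. A quasi-likelihood model with the 6 tissue pools as a block and OL against total RNA within each group gave OL enrichment and its difference. A model of 4 group means gave the OL and total RNA changes. The p-values were adjusted over all genes tested. Thresholds were q under 0.05 with log2 past 1 (past 0.5 for enrichment), and pool ratios used a prior count of 2. A level of 3 counts served as the floor for bounds, and such bounds cover counting error only. The scripts were tested on simulated data.

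The block rests on the study's pairing of both kinds of RNA from a tissue pool. Deviations from the group means correlated at r of 0.137, 0.109 and 0.224 in naive pools and 0.159, 0.187 and 0.187 in dpi 2 pools, against at most 0.0794 for different pools. Pools are separate animals, and p-values measure the spread between 3 of them per group.

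Genes named are the 12 each way of smallest unadjusted p, and 6 each way by size of difference and by a switch between OL depleted and enriched, all with fully separated pools. The rule on size also set a minimum count. Another 6 each way were taken by opposite components, without a condition on separated pools, and list members were added. The members and lists were chosen with earlier results of these data known. Promoters are those of RefSeq on GRCm38.p6, and gene spans are those of GENCODE, whose starts can differ. Alternatives were no block, DESeq2 1.42.0 size factors and Wald test, library sizes alone, TMM against a total RNA library, other count filters, the dpi 10 libraries added, a length and GC offset, and leaving out each pool. Results for some genes that these rules name are not reported here.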

Additional observations from a re-analysis of the deposited data

Results flagged for a closer look

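In 12 genes OL and total RNA changed in opposite directions, each past its threshold, and the interaction test of the difference passed as well. Strip2 (log2 difference 4.57), Magee2 (2.69), Slc18a3 (2.41), Kbtbd3 (2.27), Far2 (2.20) and Inpp4a (2.18) rose in OL and fell in total RNA. Rab7b (-3.89), Apbb1ip (-3.47), Zc3h12a (-3.21), Efemp1 (-3.06) and Ptk2b (-2.47) fell in OL and rose in total RNA. Tmc8 had 10, 37 and 21 counts in naive OL and none on dpi 2, at least 7.98-fold lower, while total RNA went from 6, 11 and 2 to 86, 52 and 34 counts. The calls of Magee2 and Far2 were lost in 4, those of Tmc8 and Zc3h12a in 5 and that of Kbtbd3 in 1 of the 6 fits without 1 pool. Strip2, Slc18a3, Inpp4a, Rab7b, Apbb1ip, Efemp1 and Ptk2b were called in each of these fits.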

How the results depend on the processing

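With TMM against a total RNA library 224 genes rose and 691 fell in OL share, and the DESeq2 Wald test gave 584 fallers. With library sizes alone 1924 genes were OL enriched in naive tissue and 1352 on dpi 2, 6600 were OL depleted on dpi 2, and 506 fell in total RNA. Over the fits without 1 pool the OL share rose in 154 to 525 genes and fell in 136 to 350, naive enrichment was called in 3074 to 3639 genes up and 3474 to 4669 down, and that of dpi 2 in 2935 to 3618 up and 2947 to 4157 down. The OL change was called in 1259 to 1855 up and 897 to 1281 down, and the total RNA change in 1252 to 1608 up and 838 to 1253 down. Without the pairing block 508 genes rose and 448 fell. Naive and dpi 2 pools with the same number hold different animals. The deviations of same-numbered OL libraries from their group means correlated at r = 0.142, 0.140 and 0.338, against -0.25 to 0.142 for other numbers, and those of total RNA libraries at 0.0725, -0.0863 and 0.0289. A block on the number gave 1684 up and 1178 down for OL and 1606 up and 1209 down for total RNA.

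Values near 0 changed sign. The median of the integrated stress response list went from 0.19 to -0.0593 with TMM against a total RNA library, and Suz12 from 0.20 to -0.0476. Bcat2 (0.01) went to -0.0509 with DESeq2 size factors, -0.0477 with library sizes alone and -0.0501 with the Wald test, to -0.24 with that TMM reference and to -0.13 to 0.18 without 1 pool. Rcor3 (0.00) went to -0.0553, -0.0523, -0.0553 and -0.24, and to -0.19 to 0.33. Without 1 pool, Apod (-0.02) lay at -0.10 to 0.0858 and Il17rb (0.43) at -0.26 to 1.09. The median of all genes went from 0.06 to -0.18 with that TMM reference and to 0.003 with DESeq2 size factors. The cause of each move was not tested. Of the values for single genes under the alternatives, 1126 kept sign and side of the threshold, 115 lost the call, 1 gained it and 18 changed sign.

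Limits: 3 pools a group with 4 residual degrees of freedom, so leaving out a pool removes many calls. The pool that goes against its label and the astrocyte RNA of OL pool 3 in both groups remain in the values of the report, and neither OL purity nor RNA quality was measured in the counts.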
